A study of Mus musculus with 3 samples.

Results

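Igf1, Igfbp4, Gas6 and Vegfa encode secreted proteins that are grouped here as repair growth factors, and their 4 rows were taken by symbol from the 14148 genes of each count table. All 4 genes had at least 1 UMI (unique molecular identifier, the tag that marks 1 captured mRNA molecule) in each of the 3 libraries. The libraries held sorted Cd45+ cells, the surface mark of leukocytes, from the small-intestinal muscularis externa, the muscle layer of the gut wall, of WT C57BL/6J mice aged 12 weeks. Droplet-based 3′ scRNA-seq had been run on naive mice and on mice 24 h and 72 h after intestinal manipulation, a surgical handling of the bowel that inflames the muscle layer. Each time point was 1 library pooled from several mice, so the animals cannot be told apart within it and no value below has a replicate.

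IGF-1 is a hormone and local growth factor that signals through the receptor tyrosine kinase IGF1R, and IGFBP4 is a secreted protein that binds IGFs and holds them from that receptor until it is cleaved. GAS6 is a vitamin K-dependent ligand that bridges phosphatidylserine on dying cells to the TAM receptors TYRO3, AXL and MERTK, through which Mφs clear cell corpses and damp cytokine production. VEGF-A acts on KDR and FLT1 of endothelial cells to drive vessel growth, and its gene is a textbook target of hypoxia-inducible factors.

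Of the 4102 cells, 652 were naive, 2211 came from 24 h and 1239 from 72 h. Their summed depth was 1865221, 10542346 and 5246731 UMIs, with medians of 2134.5, 4669 and 3295 UMIs per cell. Ptprc, the gene of CD45, had a UMI in 60.3% of the naive, 58.4% of the 24 h and 64.1% of the 72 h cells. Each pair of libraries shared 1 cell barcode, and no shared barcode had identical counts. Clusters were named "X-like" from listed markers, without the 4 genes or any other listed gene among the genes used for clustering. Monocyte/Mφ-like cells numbered 139 in naive muscularis, 1547 at 24 h and 575 at 72 h, and the cells that made up this class differed between libraries. Cx3cr1+-like cells were the most numerous named subset in naive tissue (73), Fabp5+-like (422), Arg1+-like (328) and Ly6c+ monocyte-like cells (321) at 24 h, and Cd206+-like (249) and Timp2+-like cells (129) at 72 h. A level is the UMIs of a gene per 1000000 UMIs of all genes (CPM), after the UMIs of all cells in a group were added up. Groups under 20 cells are not compared, and every bracket after a value is a 95% interval for counting error only. A time point and its library cannot be told apart, so no interval covers differences between mice.

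The sequences around the start sites of the 4 genes are shown first, because Igf1, Igfbp4 and Gas6 changed in the same direction between libraries while Vegfa was too sparse to follow, and the promoters are the stretch a reader would compare. Each runs from 250 bases before to 50 bases after a start of transcription given by RefSeq, on the gene's own strand 5′ to 3′ in GRCm38.p6, with Vegfa shown at both of its listed starts. The windows of Igf1 and Igfbp4 and the downstream window of Vegfa lie inside the annotated gene, at a start downstream of its 5′ end. For Igf1 and Igfbp4 the outermost start is therefore not shown. Capitals mark every match, on either strand, to 7 short motifs that were searched: the PU.1 core GAGGAA, the AP-1 site TGANTCA, the C/EBP site TTGCNNAA, the MAF half-site TGCTGA, the hypoxia response core ACGTG, the GC box GGGCGG and the TATA box TATAAA.
Igf1, chr10:87860861-87861160, plus strand: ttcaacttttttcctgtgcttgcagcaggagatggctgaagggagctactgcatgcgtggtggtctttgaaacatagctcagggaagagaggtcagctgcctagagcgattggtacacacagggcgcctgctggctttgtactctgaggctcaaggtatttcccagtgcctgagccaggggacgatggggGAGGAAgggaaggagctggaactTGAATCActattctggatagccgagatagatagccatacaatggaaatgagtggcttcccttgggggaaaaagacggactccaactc
Igfbp4, chr11:99040994-99041293, plus strand: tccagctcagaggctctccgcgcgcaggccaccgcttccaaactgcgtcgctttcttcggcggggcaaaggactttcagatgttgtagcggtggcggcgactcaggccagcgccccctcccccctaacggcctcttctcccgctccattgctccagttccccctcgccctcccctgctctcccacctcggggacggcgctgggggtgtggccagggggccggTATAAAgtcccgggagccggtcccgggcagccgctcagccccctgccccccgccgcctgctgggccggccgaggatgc
Gas6, chr8:13494486-13494785, minus strand: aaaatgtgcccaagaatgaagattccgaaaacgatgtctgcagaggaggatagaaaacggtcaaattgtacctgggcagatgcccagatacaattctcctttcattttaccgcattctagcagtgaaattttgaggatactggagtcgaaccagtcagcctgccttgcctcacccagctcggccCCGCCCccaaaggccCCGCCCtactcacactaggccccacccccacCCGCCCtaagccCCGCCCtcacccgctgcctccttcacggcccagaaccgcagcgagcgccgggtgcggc
Vegfa, upstream start, chr17:46032328-46032627, minus strand: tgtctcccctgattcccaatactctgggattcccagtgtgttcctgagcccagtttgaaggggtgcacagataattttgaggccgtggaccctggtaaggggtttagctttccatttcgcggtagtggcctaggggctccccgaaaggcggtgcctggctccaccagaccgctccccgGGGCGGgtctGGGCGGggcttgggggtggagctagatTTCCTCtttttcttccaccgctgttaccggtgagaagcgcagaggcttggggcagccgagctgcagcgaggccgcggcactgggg
Vegfa, downstream start, chr17:46025114-46025413, minus strand: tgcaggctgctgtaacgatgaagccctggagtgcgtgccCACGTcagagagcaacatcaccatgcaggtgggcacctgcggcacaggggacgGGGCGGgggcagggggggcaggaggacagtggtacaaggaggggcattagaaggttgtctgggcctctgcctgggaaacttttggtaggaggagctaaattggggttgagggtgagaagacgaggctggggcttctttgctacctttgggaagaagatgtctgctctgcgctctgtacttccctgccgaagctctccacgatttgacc

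The Igf1 window held 1 PU.1 core and 1 AP-1 site, the Igfbp4 window a TATA box whose first base lay at -28 from the start, and the Gas6 window 4 GC boxes between -66 and -8. At Vegfa, the upstream window held 1 PU.1 core, 2 GC boxes and no hypoxia response core. The downstream window, which lies inside the gene, held 1 hypoxia response core and 1 GC box. Whether this hypoxia response core acts on Vegfa was not tested. No match overlapped another, and no C/EBP site or MAF half-site was in the 5 windows. Of the 32851 promoters of the same length, 28.3% held a PU.1 core, 7.81% an AP-1 site, 10.8% a C/EBP site, 19.5% a MAF half-site, 19.6% a hypoxia response core, 35.7% a GC box and 13.6% a TATA box. Igf1, Igfbp4 and Gas6 shared no motif in these windows. CpG dinucleotides numbered 27 in the Igfbp4 window, 17 at Gas6, 16 and 10 at the upstream and downstream Vegfa starts and 6 at Igf1, against a median of 7 over all promoters.

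In the GRCm38.p6 annotation Igf1 spans chr10:87858265-87937047 on the plus strand, Igfbp4 chr11:99040005-99052655 on the plus strand, Gas6 chr8:13465374-13494535 on the minus strand and Vegfa chr17:46016993-46032377 on the minus strand. Exons of Gas6 are overlapped on the opposite strand by Tmem255b, which is not a row of the tables, and no annotated gene overlaps exons of the other 3.

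The Igf1, Igfbp4 and Gas6 transcripts came mainly from monocytes/Mφs. Over the 3 libraries, 94.7% of Igf1 UMIs (92.7 to 96.4), 92.5% of Gas6 UMIs (89.6 to 94.8), 83.9% of Igfbp4 UMIs (81.1 to 86.3) and 81.4% of Vegfa UMIs (73.1 to 87.9) were in monocyte/Mφ-like cells, which held 71.4% of all UMIs. Outside this class, Igfbp4 reached 39.8 CPM in DC-like cells at 72 h (37 UMIs), 42.5 CPM in T cell-like cells at 72 h (18 UMIs) and 35.4 CPM in naive B cell-like cells (28 UMIs). Igf1 and Gas6 had at most 18.9 CPM in any other class. In neutrophil-like cells Igf1 had 3 UMIs at 24 h and 0 at 72 h, and Gas6 had 0 at both times, which allows up to 7.52 CPM at 24 h and 20.6 CPM at 72 h.

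**Figure D1:**
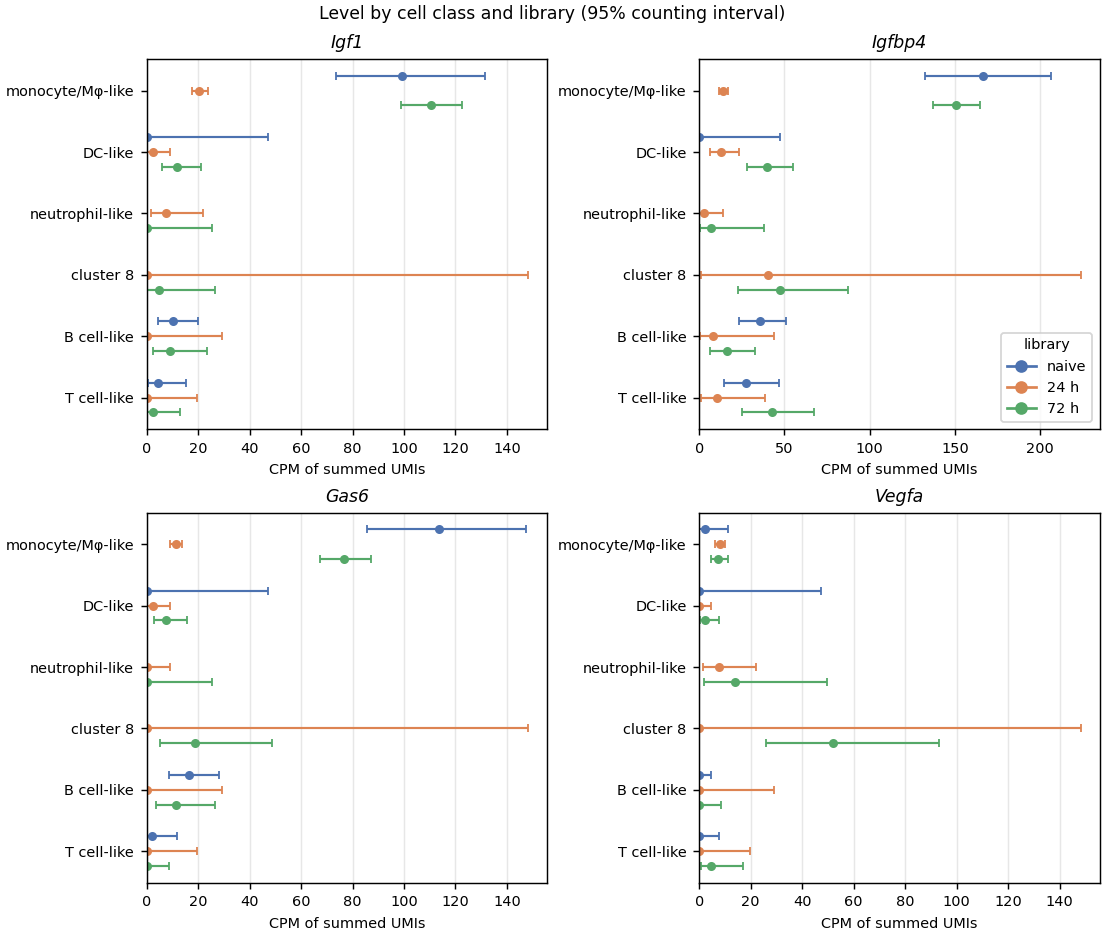
CPM of summed UMIs of each gene (x axis, 1 panel per gene with its own scale) in each cell class and library, as points with 95% counting intervals; only groups of at least 20 cells are drawn. Igf1, Igfbp4 and Gas6 peak in monocyte/Mφ-like cells of the naive and 72 h libraries (76.8 to 166 CPM), and the highest Vegfa level, 52.1 CPM, is in unnamed cluster 8 at 72 h.

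Within monocytes/Mφs, Igf1, Igfbp4 and Gas6 were each lower at 24 h than in naive tissue and higher again at 72 h. No monocyte/Mφ cluster had 20 cells in both the naive and the 24 h library. Cx3cr1+-like cells numbered 73 and 1, and Cd206+-like cells 26 and 4. For 24 h over naive, a change in the subsets and less RNA per cell therefore cannot be told apart. Igf1 stood at 99.4 CPM in naive monocytes/Mφs (73.5 to 131), 20.5 CPM at 24 h (17.7 to 23.7) and 110.3 CPM at 72 h (98.9 to 123). The 24 h level was 0.206 times the naive level (0.150 to 0.289), and the 72 h level 5.38 times the 24 h level (4.48 to 6.47). At 72 h Igf1 was within counting error of naive, at 1.11 times (0.821 to 1.53).

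Igfbp4 went from 166 CPM (132 to 206) to 14.1 CPM (11.7 to 16.8) and 150.6 CPM (137 to 165). This was the widest swing of the 4 genes, with ratios of 0.0847 for 24 h over naive (0.0636 to 0.113) and 10.7 for 72 h over 24 h (8.77 to 13.1). Its level at 72 h was 0.906 times the naive level (0.715 to 1.16).

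Gas6 went from 113.6 CPM (85.8 to 148) to 11.2 CPM (9.12 to 13.6) and 76.8 CPM (67.3 to 87.2), with ratios of 0.0986 (0.0704 to 0.139) and 6.85 (5.41 to 8.74). Unlike the IGF pair, Gas6 stayed under its naive level at 72 h beyond counting error, at 0.676 times (0.503 to 0.921). The lower level at 24 h was also seen in the shares of cells with at least 1 UMI, although cells were read more deeply at 24 h (median 5935 UMIs) than in naive tissue (3315). Igf1 was detected in 18.7% of naive, 6.59% of 24 h and 28.3% of 72 h monocytes/Mφs, Igfbp4 in 31.7%, 6.66% and 40.0%, and Gas6 in 25.9%, 4.33% and 20.5%. After each cell was thinned to 1500 UMIs, the shares at these 3 times were 8.26%, 2.92% and 13.1% for Igf1, 20.7%, 1.90% and 17.2% for Igfbp4, and 14.9%, 1.22% and 9.74% for Gas6.

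Naive B cell-like cells were first assumed to lack these factors, but they held 8 Igf1, 28 Igfbp4 and 13 Gas6 UMIs. Whether these UMIs are background or expression was not tested. Of the naive B cell-like cells, 1.08% had an Igf1 UMI, 3.96% an Igfbp4 UMI and 2.16% a Gas6 UMI at a median of 1869 UMIs. After thinning these shares were 1.37%, 3.65% and 0.913%. The thinned 24 h share of Igfbp4, 1.90%, lay under that naive share and is not read as expression spread over all monocytes/Mφs. The thinned 24 h shares of Igf1 and Gas6, 2.92% and 1.22%, lay within the intervals of the naive B cell-like shares (0.283 to 3.95 and 0.111 to 3.26). These B cell-like shares belong to another library, so they cannot set a background for the 24 h cells. In the 24 h library itself, the 38 B cell-like cells had 0 UMIs of Igf1 and of Gas6 and 1 of Igfbp4.

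Vegfa was rare throughout, with 3 UMIs in the naive library, 75 at 24 h and 40 at 72 h. In monocytes/Mφs it had 2.03 CPM in naive tissue from 1 UMI (0.0514 to 11.3), 7.99 CPM at 24 h (6.25 to 10.1) and 7.42 CPM at 72 h (4.70 to 11.1). The 24 h over naive ratio of 3.94 had an interval of 0.684 to 158, so a difference was not detectable at this depth, and the 72 h over 24 h ratio was 0.929 (0.554 to 1.504). In B cell-like cells Vegfa had 0 UMIs at each time, which in the 278 naive cells allows a level of up to 3.79 CPM.

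Summed over all cells, as a bulk sample would be, Igf1 stood at 31.6, 18.02 and 68.4 CPM in the naive, 24 h and 72 h libraries, Igfbp4 at 66.5, 13.5 and 102.9 CPM, and Gas6 at 37.5, 9.77 and 48.4 CPM. In these sums too, fewer cells of a type and less RNA per cell cannot be told apart. Monocytes/Mφs made up 21.3% of naive, 70.0% of 24 h and 46.4% of 72 h cells. Against naive, Igf1 was 2.16 times as high at 72 h over all cells (1.64 to 2.90) and Igfbp4 1.55 times (1.27 to 1.90), whereas neither differed beyond counting error within monocytes/Mφs. The Vegfa sums rested on 3 naive UMIs, with a ratio to naive of 4.42 (1.46 to 21.9) at 24 h and 4.74 (1.51 to 24.0) at 72 h.

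**Figure D2:**
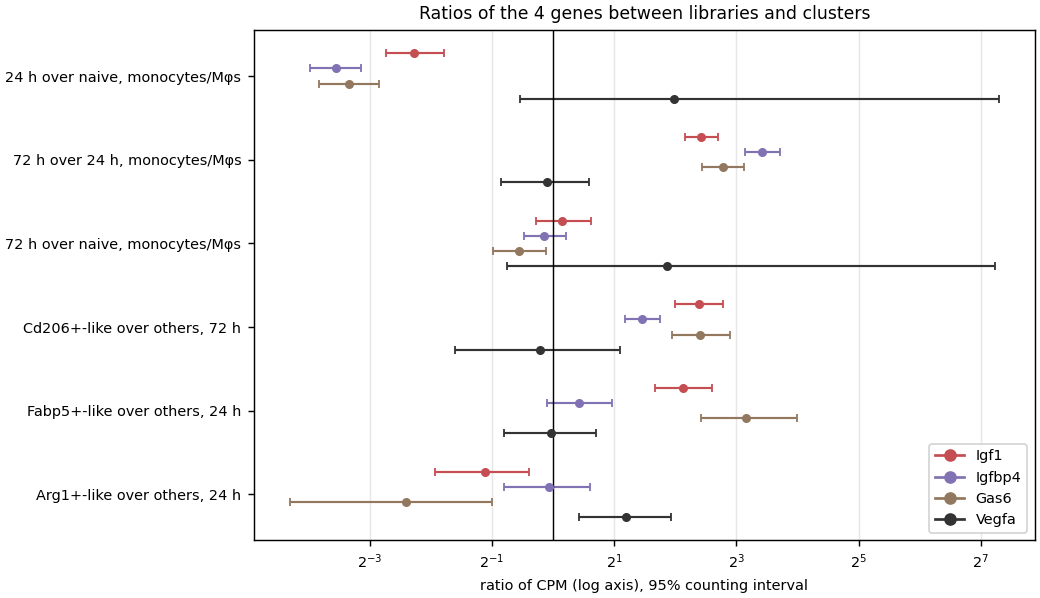
Ratio of CPM on a log axis (x axis), with 95% counting intervals, for 3 comparisons of libraries and 3 of a cluster with the other monocytes/Mφs of its library; colours are the 4 genes and the vertical line is a ratio of 1. Igf1, Igfbp4 and Gas6 lie at 0.0847 to 0.206 for 24 h over naive and at 5.38 to 10.7 for 72 h over 24 h, while each Vegfa interval for a pair of libraries spans 1.

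Of the 4 genes, 3 passed the floor of 20 CPM in either group that was set for comparisons across all genes, and Vegfa did not. With 10 CPM added to each level, all 3 were at least 2-fold lower at 24 h than in naive monocytes/Mφs, where 5.96% of the 5584 genes over the floor were that much lower. The same 3 were at least 2-fold higher at 72 h than at 24 h, against 2.21% of 5213 genes (4.45% in either direction). At 72 h against naive, 0 of the 3 were past 2-fold, where 1.45% of 5509 genes were higher and 2.36% lower (3.81% in either direction). On the log2 scale with this pseudocount their median was -2.54 for 24 h over naive (0.06 over all genes) and 2.03 for 72 h over 24 h (-0.07 over all genes). The 2 comparisons share the 24 h library.

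At 72 h the 3 genes were concentrated in Cd206+-like Mφs, the cluster that carried Mrc1 (the gene of CD206), Selenop, Trem2, Stab1 and Ms4a7. Igf1 stood there at 206 CPM (182 to 231) against 39.4 CPM in the other monocytes/Mφs of the library, a ratio of 5.22 (3.997 to 6.88). Igfbp4 stood at 237 against 86.1 CPM, a ratio of 2.75 (2.26 to 3.36), and Gas6 at 144 against 27.02 CPM, a ratio of 5.31 (3.85 to 7.45). Cd206+-like cells held 74.8% of the Gas6 UMIs of the library and 25.2% of all its UMIs. Gas6 and Igfbp4 were not particular to them. The unnamed Mφ cluster 8 (17 cells) held 8.27% of the Gas6 and 4.63% of the Igfbp4 UMIs, beside 2.27% of all UMIs. Its share of the Igf1 UMIs was 3.34% (1.74 to 5.77). The Fabp5+-like cells (5 cells) held 2.76% of the Gas6, 1.11% of the Igfbp4 and 1.11% of the Igf1 UMIs, beside 0.755% of all UMIs. Both groups had too few cells to compare. All 3 passed 2-fold with 10 CPM added, where 1.38% of 5282 genes were that much higher, whereas Vegfa stood at 6.80 CPM from 9 UMIs, 0.863 times the others (0.329 to 2.14). The clusters were made from other genes of the same cells, so these contrasts describe the cluster and are no test.

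Timp2+-like Mφs, the other main subset at 72 h, were lower for all 3 genes. They had 55.5 CPM of Igf1 (38.6 to 77.2), 128 CPM of Igfbp4 (102 to 160) and 25.4 CPM of Gas6 (14.5 to 41.2). Cd206+-like cells exceeded them 3.70-fold for Igf1 (2.60 to 5.43), 1.85-fold for Igfbp4 (1.44 to 2.39) and 5.66-fold for Gas6 (3.40 to 10.1). Vegfa had 0 UMIs in the 129 Timp2+-like cells, which allows up to 4.76 CPM.

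Naive Cd206+-like cells were few (26), with 113 CPM of Igf1 (11 UMIs), 327 CPM of Igfbp4 (32 UMIs) and 164 CPM of Gas6 (16 UMIs). The 72 h Cd206+-like cells had 1.83 times as much Igf1 (1.004 to 3.70), 0.725 times as much Igfbp4 (0.503 to 1.08) and 0.877 times as much Gas6 (0.526 to 1.57). For Igfbp4 and Gas6 the 2 times were therefore within counting error of each other in this subset.

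The naive Cx3cr1+-like Mφs had 72.2 CPM of Igf1 (41.3 to 117), 144 CPM of Igfbp4 (98.8 to 204) and 144 CPM of Gas6 (98.8 to 204). Against them, naive Cd206+-like cells had 2.27 times the Igfbp4 (1.34 to 3.82), and the ratios for Igf1, 1.56 (0.654 to 3.58), and Gas6, 1.13 (0.581 to 2.13), spanned 1. The 21 Cx3cr1+-like cells left at 72 h had lower levels, of 34.3, 60.03 and 25.7 CPM, from 4, 7 and 3 UMIs. Relative to naive this was 0.475 times for Igf1 (0.116 to 1.47), 0.416 times for Igfbp4 (0.155 to 0.959) and 0.178 times for Gas6 (0.0349 to 0.569), so the Cx3cr1+-like subset did not share the 72 h level of the whole class.

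In the order of levels over the 27 groups of at least 20 cells, the 3 groups with the highest Igf1 were Cd206+-like at 72 h, Cd206+-like in naive tissue and Cx3cr1+-like in naive tissue. The same 3 groups led for Igfbp4 and for Gas6, in another order. For Gas6 these 3 did not differ beyond counting error (144 to 164 CPM), and a gap followed, since the third exceeded the fourth, Fabp5+-like at 24 h, 5.30-fold (4.07 to 6.94).

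**Figure D3:**
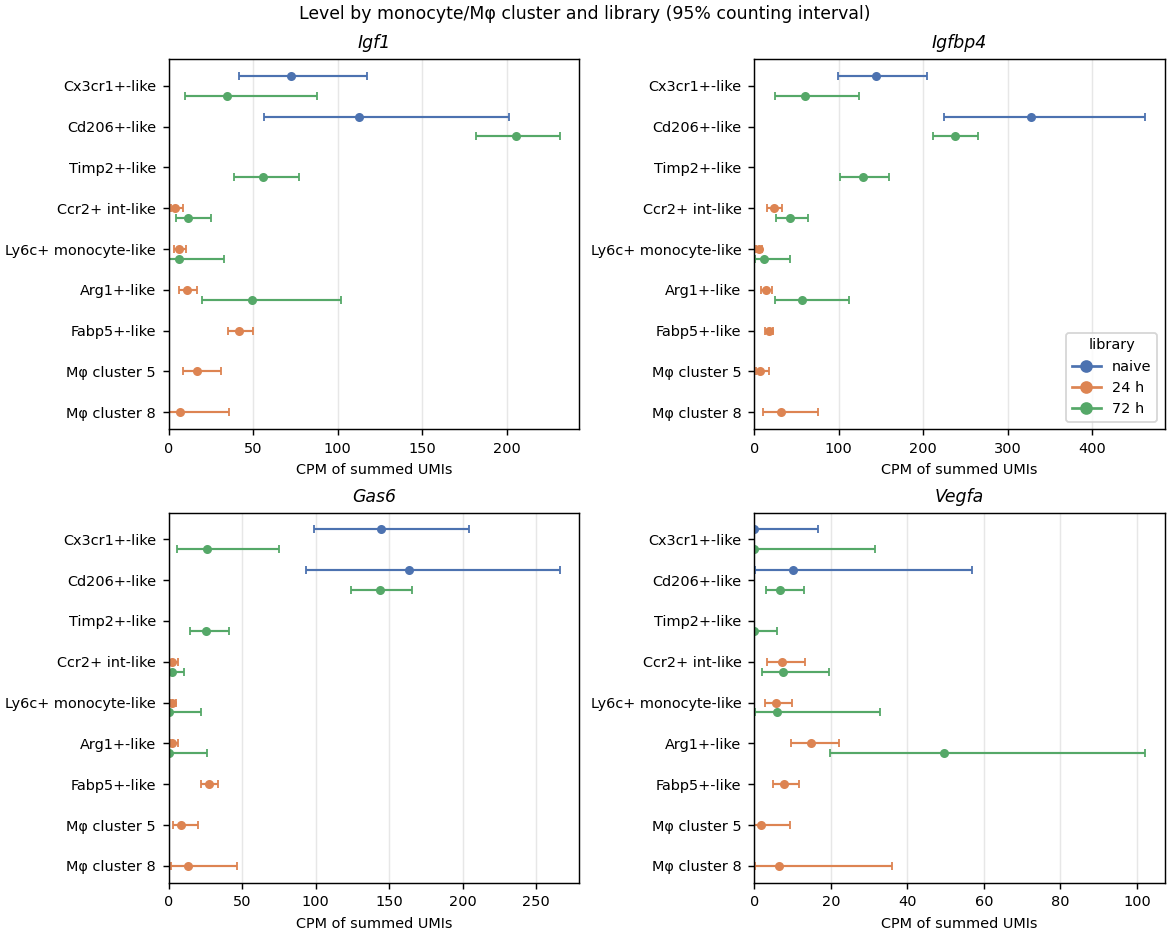
CPM of summed UMIs (x axis, 1 panel per gene with its own scale) in each monocyte/Mφ cluster and library with at least 20 cells, with 95% counting intervals. Cd206+-like cells of the naive and 72 h libraries have 113 to 327 CPM of Igf1, Igfbp4 and Gas6, with naive Cx3cr1+-like cells at 144 CPM of Gas6, and Vegfa is highest in Arg1+-like cells at 72 h (49.5 CPM).

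At 24 h, when the class as a whole was low, Igf1 and Gas6 were highest among the compared monocyte/Mφ clusters in Fabp5+-like Mφs, which also carried Gpnmb and Spp1. Igf1 stood there at 41.8 CPM (34.9 to 49.7), 4.37 times the other monocytes/Mφs (3.17 to 6.07), and the subset held 128 of the 185 Igf1 UMIs of the class. Gas6 stood at 27.1 CPM (21.6 to 33.6), 8.96 times the others (5.34 to 15.9), with 83 of 101 UMIs. A further 11 Igf1 UMIs were in 2 of the 4 Cd206+-like cells of this library, too few cells to compare. Igfbp4 was not distributed in this way, at 17.0 CPM (12.7 to 22.3) or 1.35 times the others (0.928 to 1.95).

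Ly6c+ monocyte-like cells were low for all 3 at 24 h, with 6.05 CPM of Igf1 (3.22 to 10.4), 5.12 CPM of Igfbp4 (11 UMIs) and 1.86 CPM of Gas6 (4 UMIs). Their ratios to the other monocytes/Mφs were 0.242 (0.126 to 0.424), 0.303 (0.147 to 0.563) and 0.132 (0.0352 to 0.349). Ccr2+ int-like cells, named from the MHCII genes H2-Aa and H2-Ab1 and from Cd74, had the most Igfbp4 of the named subsets at 24 h, 22.9 CPM (15.6 to 32.3) or 1.83 times the others (1.19 to 2.76). Their Igf1 was 0.151 times the others (0.0485 to 0.360). The unnamed Mφ cluster 5, whose cells were shallow, had 16.9 CPM of Igf1 (8.11 to 31.1), and the unnamed Mφ cluster 8, which was led by B cell genes, had 6.44 CPM from 1 UMI. Igfbp4 in Mφ cluster 8 stood higher than in Ccr2+ int-like cells, at 32.2 CPM from 5 UMIs, with a wide interval (10.5 to 75.2).

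Arg1+-like cells showed the opposite arrangement to Fabp5+-like cells. At 24 h their Vegfa was 14.8 CPM from 24 UMIs, 2.28 times the other monocytes/Mφs (1.34 to 3.80), while their Igf1 was 0.462 times (0.263 to 0.761) and their Gas6 0.188 times the others (0.0502 to 0.497). In the 37 Arg1+-like cells at 72 h, Vegfa stood at 49.5 CPM (19.9 to 102) from 7 UMIs in 5 cells, 9.16 times the others of that library (3.19 to 23.5) and 3.35 times its 24 h level (1.22 to 8.01). Fabp5+-like cells did not differ from the others in Vegfa at 24 h beyond counting error (0.972, 0.569 to 1.62).

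For the clusters with at least 20 cells at both 24 h and 72 h, the change could be read within the cluster. Arg1+-like cells had 4.73 times as much Igf1 at 72 h as at 24 h (1.66 to 12.0) and 4.17 times as much Igfbp4 (1.61 to 9.73). These 72 h levels rest on 7 Igf1 and 8 Igfbp4 UMIs in 37 cells. Igfbp4 was also higher at 72 h in DC-like cells (12.7 CPM at 24 h, 39.8 CPM at 72 h). In T cell-like cells it went from 10.6 CPM (2 UMIs) to 42.5 CPM. Whether such a rise is particular to monocytes/Mφs was not tested. Ccr2+ int-like cells had 1.83 times as much Igfbp4 (1.01 to 3.25), and their Igf1 ratio of 3.19 spanned 1 (0.812 to 13.2). Ly6c+ monocyte-like cells had an Igf1 ratio of 0.972 (0.0229 to 6.47) from 1 UMI at 72 h. Gas6 had 0 UMIs in Arg1+-like and 1 UMI in Ccr2+ int-like cells at 72 h, so no within-cluster rise of Gas6 could be read there.

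In cluster 8 of all cells, 5 of 6 neutrophil markers were at least 2-fold higher, but the cells were shallow (median 954.5 UMIs at 72 h) and none of these markers was among the 10 genes that led the cluster, which included Gm12840, Ptgs2, Siglecf and Mmp9, so it was left unnamed. This cluster numbered 204 cells at 72 h, and its Vegfa level came first in the order, 52.1 CPM (26.0 to 93.2) from 11 UMIs in 9 cells, within counting error of Arg1+-like cells at 72 h (ratio 1.05, 0.372 to 3.20). That was 7.02 times the level of monocytes/Mφs of the same library (3.09 to 14.999), and the cluster had 1 Igf1 UMI and 4 Gas6 UMIs.

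Single cells of the Cd206+-like cluster differed widely in these transcripts. Of the 249 cells at 72 h, 49.4% had an Igf1 UMI, 57.0% an Igfbp4 UMI, 36.1% a Gas6 UMI and 3.61% a Vegfa UMI (23.4%, 26.8%, 18.4% and 0.837% after thinning to 1500 UMIs). Igf1 counts of 3 or more were found in 43 of these cells, 4 of 129 Timp2+-like cells and 14 of 422 Fabp5+-like cells at 24 h, with a highest count of 10 in a Timp2+-like cell. Igfbp4 reached 3 or more UMIs in 41 and Gas6 in 19 of the Cd206+-like cells at 72 h, whereas no Cd206+-like cell had more than 1 Vegfa UMI. One naive Fabp5+-like cell held 11 of the 49 Igf1 UMIs of naive monocytes/Mφs, and without the top cell of each group the 24 h over naive ratio of Igf1 was 0.252.

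**Figure D4:**
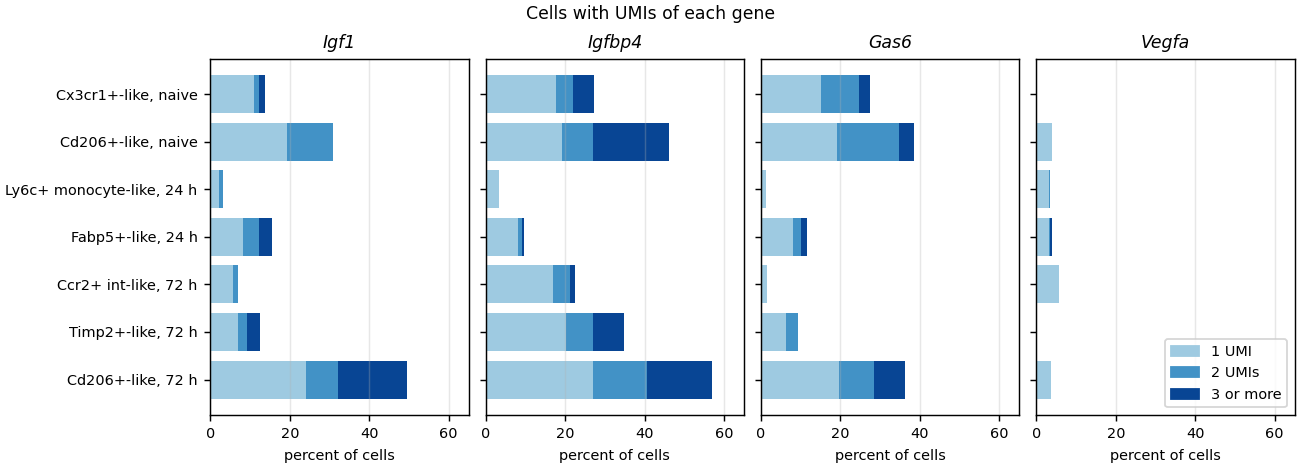
Percent of cells (x axis) with 1, 2, or 3 and more UMIs of each gene, stacked, in selected groups of monocytes/Mφs. Cd206+-like cells at 72 h have the longest Igf1 bar, 49.4% of 249 cells. The longest Vegfa bar is that of Ccr2+ int-like cells at 72 h, 4 of 71 cells.

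Igf1, Igfbp4 and Gas6 were seen in the same cells in part of the Cd206+-like cluster. Of the 249 Cd206+-like cells at 72 h, 42 had all 3 transcripts, 73 had 2, 83 had 1 and 51 had none. Cells with more of the 3 were also read more deeply, with median UMI counts of 3598, 5061, 5817 and 5919 for none, 1, 2 and 3. Gas6 was detected in 48.8% of the 123 cells with an Igf1 UMI (60 cells) and in 30 of the 126 without. After thinning, the share was 30.4% of the cells with Igf1, and 27 of 183 without it. For Gas6 and Igfbp4 the thinned difference was smaller, with Gas6 in 15 of 64 cells with Igfbp4 and in 29 of 175 without. Elsewhere the thinned counts were small and pairs went both ways. Among the other monocytes/Mφs at 72 h Igfbp4 was seen in 0 of 14 cells with Igf1 and in 28 of 281 without. Gas6 was seen there in 2 of 14 and 6 of 281. In naive monocytes/Mφs Gas6 was seen in 1 of 10 cells with Igf1 and in 17 of 111 without, and Igfbp4 in 4 of 10 and 21 of 111. Of the 1547 monocytes/Mφs at 24 h, 0 had all 3 and 34 had 2.

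Across the 27 groups, the genes whose levels followed those of Igf1 most closely, by Pearson's r of log2(CPM + 10) among 5876 genes, were Stab1 (r = 0.87), Ms4a7 (0.85) and Gas6 itself (0.85), then Gdpd1 and Pgpep1 (0.83 each). Gdpd1 and Pgpep1 reached 50 CPM with at most 51.2 CPM, in the 26 naive Cd206+-like cells, where Igf1 is also high, so their r is not read further. Stab1 and Ms4a7 are among the markers that named the Cd206+-like cluster. Igfbp4 was followed by Gas6 (0.80), Pcyox1 (0.80), Igf1 (0.79), mt-Atp8 (0.75) and Fxyd2 (0.74). Pcyox1, mt-Atp8 and Fxyd2 likewise had their highest levels in those 26 cells, of 51.2, 51.2 and 71.6 CPM, the group that led for Igfbp4. Gas6 was followed by Igf1 (0.85), Cp (0.85), Cd163 (0.84), Gna12 (0.84) and Ms4a7 (0.83). Of these, Cp reached at most 58.7 CPM, in naive Cx3cr1+-like cells, and Gna12 77.2 CPM, in Cx3cr1+-like cells at 72 h. Cd163 reached 102 CPM in the 26 naive Cd206+-like cells. Vegfa had other neighbours, namely Cxcl3 (0.74), Olr1 (0.73), Vps4b (0.71) and Ndufa7 (0.68), and its r was 0.15 with Igf1, 0.12 with Igfbp4 and -0.01 with Gas6. Vps4b and Ndufa7 were highest in cluster 8 at 72 h and Olr1 in Arg1+-like cells at 72 h. These groups led for Vegfa from only 11 and 7 UMIs, so these r are not read further. Cxcl3 is a neutrophil chemokine and one of the markers that named the Arg1+-like cluster. These are descriptions over groups that share 3 libraries, and their depths differed.

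Of the IGF axis, 8 of 18 listed genes other than the 4 were in the tables and 2 passed the 20 CPM floor in monocytes/Mφs. Igf1r, the IGF-1 receptor, was highest in neutrophil-like cells among the named classes, at 57.7 CPM at 24 h (36.5 to 86.5) and 144 CPM at 72 h (89.2 to 220.2), and stood at 13.6 CPM in Cd206+-like cells at 72 h (8.06 to 21.5). Igfbp6, another IGF-binding protein, was also highest there among the named classes (742 CPM at 24 h) and reached 152 CPM in Arg1+-like cells at 24 h. In monocytes/Mφs as a whole Igfbp6 stood at 6.09 CPM in naive tissue (3 UMIs) and 73.3 CPM at 24 h, a ratio of 12.0 (4.10 to 58.6), opposite in direction to Igfbp4, and at 34.2 CPM at 72 h.

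Axl stood at 126 CPM in naive monocytes/Mφs, 92.2 CPM at 24 h and 148 CPM at 72 h, and Mertk at 30.4, 37.0 and 45.5 CPM. The 24 h level of Axl was 0.733 times the naive level (0.566 to 0.965) and that of Mertk 1.22 times (0.727 to 2.20), beside 0.0986 times for Gas6. At 72 h Axl was highest in Cx3cr1+-like cells, at 412 CPM (303 to 546), where Gas6 was low, and Cd206+-like cells had 144 CPM of Axl, 0.953 times the others (0.788 to 1.15), and 60.4 CPM of Mertk, 1.76 times the others (1.25 to 2.50). Pros1, the gene of the other TAM ligand protein S, was highest in Timp2+-like cells at 72 h, at 88.8 CPM (67.1 to 115), against 31.7 CPM in Cd206+-like cells (22.9 to 42.9). Gas6 showed the reverse order in these 2 subsets. Of the 10 genes of this axis other than Gas6 in the tables, 7 passed the 20 CPM floor, and 3 of the 7 were at least 2-fold lower at 24 h than in naive tissue with 10 CPM added, against 5.96% of all genes over the floor. They were Pros1 (0.352 times), Vkorc1, which recycles the vitamin K needed to make GAS6 (0.359 times), and the cytokine-signalling brake Socs3 (0.377 times). At 72 h Socs3 was 2.41 times its 24 h level and was the only one of the 7 past 2-fold, against 2.21% of genes higher.

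Of 10 listed genes of the VEGF axis, 8 were in the tables, 2 passed the floor, and 0 were past 2-fold at 24 h against naive. Among the receptors, Kdr and Flt1 were near the detection floor in these leukocytes, with at most 9.14 and 11.2 CPM in any monocyte/Mφ cluster. The co-receptor Nrp1 was abundant, at 81.1, 73.4 and 67.4 CPM in naive, 24 h and 72 h monocytes/Mφs, and stood at 102 CPM in Cd206+-like cells at 72 h, 2.45 times the others (1.83 to 3.30). In the list of hypoxia-response genes, 12 of the 19 in the tables passed the floor, and 6 of the 12 were at least 2-fold higher at 24 h than in naive monocytes/Mφs, where 6.02% of genes over the floor were. They included the transcription factor gene Hif1a (73.0 to 192 CPM, ratio 2.63, 1.89 to 3.77) and the glycolytic genes Ldha (296 to 797 CPM), Pgk1 (95.3 to 416 CPM) and Aldoa (327 to 743 CPM). None of the 12 was 2-fold lower, and 3 (Pgk1, Aldoa and Ankrd37) were at least 2-fold lower at 72 h than at 24 h, where 2.24% of genes were. In Cd206+-like cells at 72 h, Pgk1 and the glucose transporter gene Slc2a1 were at least 2-fold lower than in the other monocytes/Mφs, 2 of 11 against 3.31% of all genes.

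Among 25 other growth factor and repair cytokine genes that were listed, 19 were in the tables and 6 passed the floor for 24 h over naive. Pdgfb went from 46.7 to 1.66 CPM, Pdgfa from 32.5 to 4.66 CPM and Gdf15 from 24.3 to 6.43 CPM, and each was at least 2-fold lower at 24 h with 10 CPM added, 3 of the 6 against 5.96% of all genes over the floor. Osm, the oncostatin M gene, went the other way, from 34.5 to 114 CPM, a ratio of 3.30 (2.05 to 5.69), the 1 of the 6 at least 2-fold higher, against 6.02% of all genes. In Cd206+-like cells at 72 h, Bmp2 stood at 33.2 CPM against 5.07 CPM in the others (6.56, 3.16 to 15.3), and Pdgfc at 21.9 against 5.63 CPM (3.89, 1.84 to 8.95). Bmp2 is a Mφ signal to enteric neurons and Pdgfc a mitogen of mesenchymal cells, and these 2 of 8 genes were at least 2-fold higher there, against 1.38% of all genes over the floor. Tgfb1 barely moved, at 278, 280.4 and 261 CPM in naive, 24 h and 72 h monocytes/Mφs.

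**Figure D5:**
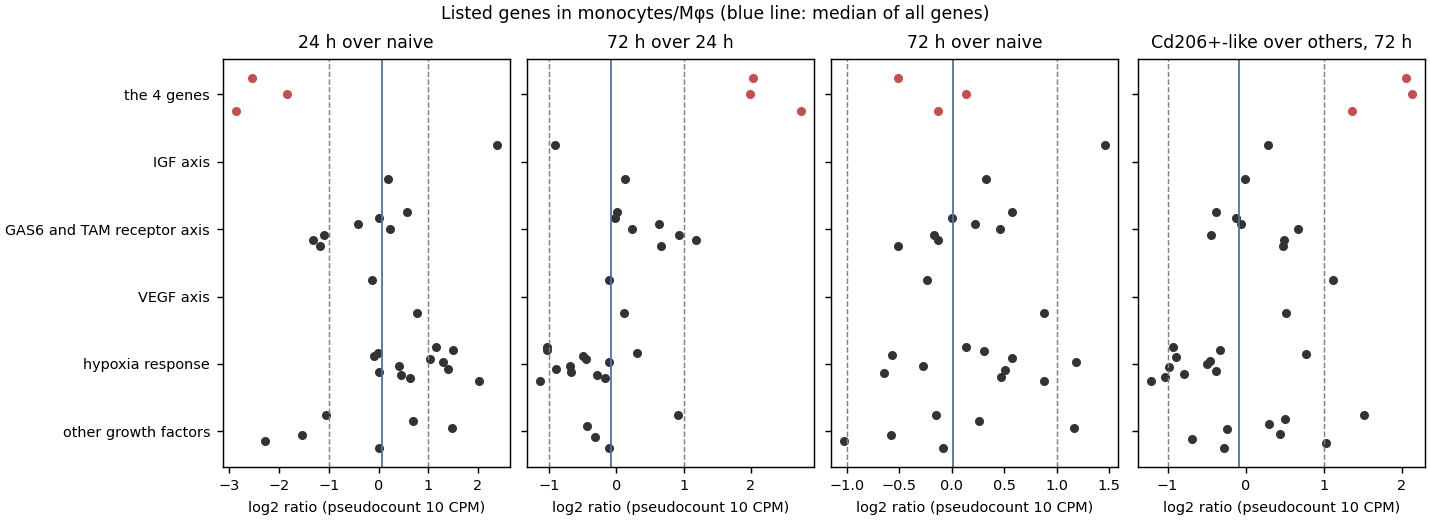
Log2 ratio with 10 CPM added (x axis) of each listed gene over the 20 CPM floor in monocytes/Mφs, in 4 comparisons and by list (rows); dashed lines mark 2-fold and the blue line the median of all genes. The 3 red points are Igf1, Igfbp4 and Gas6, with a median of -2.54 for 24 h over naive and 2.03 for 72 h over 24 h.

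Markers of cells that the sort should remove were counted beside these results. UMIs of 6 fibroblast markers summed to 2 in the naive library, 3 at 24 h and 31 at 72 h, and 25 of those 31 were in Cd206+-like cells, where they made 18.9 CPM. UMIs of the 3 smooth muscle markers in the tables summed to 30, 67 and 130, of which 83 were in Cd206+-like cells at 72 h (62.7 CPM, and 92.1 CPM in naive Cd206+-like cells). The 4 endothelial markers in the tables summed to 91, 202 and 174 UMIs (48.8, 19.2 and 33.2 CPM), with Cdh5 at 0 in the naive and 72 h libraries, and made 24.2 CPM in Cd206+-like cells at 72 h. In Timp2+-like (11 UMIs) and Ccr2+ int-like cells (12 UMIs) at 72 h, Cdh5, Vwf and Egfl7 were all at 0. There 1 marker held every UMI, so this sum is not read as a measure of endothelial cells. A fibroblast or smooth muscle UMI was found in 66 of the 249 Cd206+-like cells at 72 h, and the 3 genes had similar levels in cells with and without one. Igf1 had 201 CPM in cells with such a UMI and 207 CPM in cells without, Igfbp4 237 CPM in both, and Gas6 138 and 146 CPM. Next, all 86 monocytes/Mφs at 72 h with such a UMI were left out, of which 66 were Cd206+-like. The remaining Cd206+-like cells exceeded the remaining others 5.25-fold for Igf1, 2.73-fold for Igfbp4 and 6.32-fold for Gas6. Both sides of these ratios changed, so the higher Gas6 ratio is not read as a property of the Cd206+-like cells.

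Plasma cell and B cell transcripts were also present in monocytes/Mφs and moved with the libraries. The 4 plasma cell markers summed to 998 CPM in naive, 89.7 CPM in 24 h and 11.6 CPM in 72 h monocytes/Mφs, and the 5 B cell markers to 223, 28.1 and 66.8 CPM. Naive Cx3cr1+-like cells held 476 of the plasma cell marker UMIs (2149 CPM) and Fabp5+-like cells at 24 h held 674 (220.1 CPM). In Cd206+-like cells these markers made 10.2 CPM in naive tissue and 4.53 CPM at 72 h. Sdc1 was at 0 in naive monocytes/Mφs and Derl3 in those of 72 h. The part of these transcripts in the levels of Igf1, Igfbp4 and Gas6 was not tested.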

How the data were processed

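The authors deposited UMI count matrices made, per the labels, with Cell Ranger 3.0.2 on mouse GRCm38 (10x Genomics 3′ libraries). Each matrix is 1 library of 1 time point, and 0 columns belonged to other samples. Cells were used as deposited (500 UMIs or more) and clustered with Seurat 5.3.0 in R 4.3.3 from 2000 variable genes that excluded all listed genes (30 principal components, resolution 0.8, 20 neighbours), and the monocyte/Mφ-like cells were clustered again (20 components). A cluster was named "X-like" when at least 3 listed markers were at least 2-fold higher in it, unless its leading 10 genes held more markers of another class, or its cells were shallow and those genes held no marker of the name. This scoring was written and revised once after clusters had been seen, so names may differ from the study's. Doublets were kept in the main setting, and 1 alternative removed the 54 cells with the highest Scrublet scores (scanpy 1.11.5).

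UMIs were summed per group and library and given as CPM with exact Poisson intervals, shares with Clopper-Pearson intervals and ratios with exact conditional Poisson intervals (numpy 2.4.6, scipy 1.17.1, pandas 2.3.3, matplotlib 3.10.9). All are 95% intervals for counting error. A count of 0 was given the limit that 3 counts allow. With 1 library per time point there is no test and no p-value. Genes with at least 20 CPM in either group were counted past 2-fold after 10 CPM was added, the genes named from each list were up to 5 with the largest ratio per comparison (others named were chosen after their values were seen), and the genes most like each of the 4 were ranked by Pearson's r among those with at least 50 CPM in a group, with 1 ranked gene not reported here. The scripts were tested on simulated data.

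The 4 genes and all lists were chosen with earlier results of these data known. Promoter sequences are from RefSeq (GRCm38.p6), where all 4 genes matched by symbol. Alternatives covered the cell filter, doublets, resolution, components, random seed, thinning to 1500 UMIs, weighting of cells, the denominator, the floor and the pseudocount, and 3 were chosen after seeing the data.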

Additional observations from a re-analysis of the deposited data

How the results depend on the processing

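Of 201 recomputed values of the main results, 195 moved by less than their counting interval, or by less than 1.5 times for counts, 6 moved further, and 0 of the values whose interval excluded no change turned direction. On the log2 scale, Gas6 for 24 h over naive was -3.92 as a mean over cells, and Gas6 in Cd206+-like over the other monocytes/Mφs was 3.14 without the unnamed Mφ cluster 8 (a ratio of 8.81). The share of UMIs in monocytes/Mφs was 76.6% for Igfbp4 and 97.2% for Vegfa after thinning to 1500 UMIs, which drops most shallow cells. With a floor of 50 CPM, which tests fewer genes, 11 listed genes were past 2-fold for 24 h over naive (17 with 20 CPM) and 2 for 72 h over naive (4 with 20 CPM). Over all alternatives, the 24 h over naive ratio ran from 0.168 to 0.252 for Igf1, 0.0674 to 0.0912 for Igfbp4 and 0.0659 to 0.108 for Gas6, and the 72 h over 24 h ratio from 4.79 to 5.72, 9.61 to 13.1 and 5.77 to 7.76. Cd206+-like over the others ran from 4.94 to 6.08 for Igf1, 2.55 to 3.07 for Igfbp4 and 5.31 to 8.81 for Gas6, while Vegfa, which did not differ beyond counting error, lay on either side of 1 (0.617 to 1.06). Vegfa ran from 2.30 to 8.43 for 24 h over naive, and without the top cell of each group it had 0 naive UMIs and no ratio. With a pseudocount of 1 CPM, the share of all genes at least 2-fold higher at 24 h than in naive tissue was 9.29% and lower 10.4%.

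No paired analysis was possible because each time point is 1 library with no replicate to leave out. Depth limits Vegfa, since its ratios to naive rest on 1 UMI in monocytes/Mφs and on 3 over all cells.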
